A study of Rattus norvegicus with 15 samples.

Results

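The FGF ligands examined were the 10 genes Fgf3, Fgf4, Fgf7, Fgf8, Fgf9, Fgf10, Fgf20, Fgf1, Fgf2 and Fgf18, chosen by name as fibroblast growth factors of the tooth germ. The choice used names and no values, but earlier results of these data were known when it was made. Of these 10 genes, 8 had a row in the table of estimated counts, among 14185 genes in all. No identifier for Fgf8 or Fgf18 was at hand, and both were not analysed here. The data were RNA sequencing libraries of 15 single molar germs from wild type DA/HanRj rat embryos, an inbred strain, with 5 libraries at each of 3 stages and no treatment. The stages E15, E17 and E18 were labelled as embryonic days E15.5, E17.5 and E18, and the labels call the E15 and E17 tooth molar 1 and the E18 tooth the lower molar of the same position. E17 replicates 1 and 2 were the left and right tooth of 1 embryo, and the other 13 libraries came from 13 embryos.

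Fibroblast growth factors are secreted proteins that bind receptor tyrosine kinases on neighbouring cells, and in teeth they carry signals between the epithelium and the underlying mesenchyme. In mouse teeth Fgf4, Fgf8, Fgf9 and Fgf20 are known from the epithelium, several of them from the enamel knot, the signalling centre that forms as the bud turns into a cap. Fgf3, Fgf7 and Fgf10 are known from the mesenchyme, and Fgf3 also from the enamel knot. The question was which of these ligands changed in level as the germ passed through the 3 stages.

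Stage could not be told apart from preparation, because each stage carried its own code in the library titles and the E18 protocol text differed from that of E15 and E17. Library totals ranged from 10993502 to 27571541 counts, with E15 replicate 1 and E18 replicate 1 the deepest. E18 replicate 3 stood apart, with a mean correlation with the other E18 libraries of 0.873 against 0.950 to 0.956 for the other 4, and the Fgf7 and Fgf10 results at E18 are given with and without it. E15 replicate 3 had the lowest such value at its stage, 0.944 against 0.965 to 0.975. Values are normalized counts, which are estimated counts divided by a library size factor. They are not corrected for transcript length and are compared only within a gene. Since nothing states that the libraries of a stage were separate litters, p-values measure the spread between these teeth.

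Some ligands moved in a like direction, and the bases upstream of their starts are shown to place them. Fgf3 and Fgf4 were both higher at E18 than at E15, and in RefSeq's GRCr8 annotation they are neighbours on chromosome 1 with 1 long non-coding RNA gene and 0 protein-coding genes between them. Fgf7 and Fgf10 were both higher at E17 than at E15 and lie on chromosomes 3 and 2. Each line gives the 250 bases before the start in RefSeq (build GRCr8), 5′ to 3′ on the strand of the gene, and capitals mark matches to a motif.
Fgf3 (chr1:209430207-209430456, plus strand): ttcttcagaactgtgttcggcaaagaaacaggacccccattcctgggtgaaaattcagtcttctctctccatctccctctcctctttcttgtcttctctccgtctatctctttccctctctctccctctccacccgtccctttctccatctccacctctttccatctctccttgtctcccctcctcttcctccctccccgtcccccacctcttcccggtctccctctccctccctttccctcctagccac
Fgf4 (chr1:209452979-209453228, plus strand): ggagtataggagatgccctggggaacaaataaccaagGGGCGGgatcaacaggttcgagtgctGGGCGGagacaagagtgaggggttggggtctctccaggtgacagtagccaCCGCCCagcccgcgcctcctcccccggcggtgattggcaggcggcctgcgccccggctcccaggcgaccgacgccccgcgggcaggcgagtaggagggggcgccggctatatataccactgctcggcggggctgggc
Fgf7 (chr3:133735377-133735626, plus strand): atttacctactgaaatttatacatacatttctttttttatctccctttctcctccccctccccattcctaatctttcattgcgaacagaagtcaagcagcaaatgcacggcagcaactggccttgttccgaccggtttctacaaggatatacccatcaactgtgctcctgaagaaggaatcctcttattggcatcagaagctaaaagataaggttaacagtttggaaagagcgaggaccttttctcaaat
Fgf10 (chr2:52533689-52533938, plus strand): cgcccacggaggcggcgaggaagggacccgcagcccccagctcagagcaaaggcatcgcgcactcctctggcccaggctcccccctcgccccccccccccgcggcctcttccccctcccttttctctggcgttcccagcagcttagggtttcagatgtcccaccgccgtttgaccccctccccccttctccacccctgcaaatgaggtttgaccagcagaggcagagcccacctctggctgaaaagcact

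The motifs searched on both strands in these windows were CTTTGA (the TCF/LEF core), CCGGAA (ETS), TAATTG (homeodomain), GGGCGG (Sp, the GC box) and TGTGGT (RUNX). No pair of these motifs overlapped in the windows shown. The Fgf4 window held 3 matches to GGGCGG, a motif present in 30.5% of the 33469 RefSeq promoter windows of the same length. The windows of Fgf3, Fgf7 and Fgf10 held 0 matches to any of the 5 motifs. Over all windows, CTTTGA was present in 13.9%, CCGGAA in 12.6%, TAATTG in 7.31% and TGTGGT in 14.5%. The Fgf3 window was made up of C and T to 81.2%, a share reached by 0.0329% of all windows, whose median was 49.6%. Fgf10 reached 60.8%, a share found in 4.68% of windows. Base composition differed between the neighbours Fgf3 and Fgf4, the latter having 43.2% C and T and 68.8% G and C.

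Fgf3, a ligand of the dental mesenchyme and the enamel knot, was nearly absent at E15 and present in every library from E17 on. At E15, replicates 1 to 5 had 3.25, 4.39, 0, 0 and 0 normalized counts of Fgf3, from 6, 4, 0, 0 and 0 counts. The 0 values allow up to 3.10 to 3.52 normalized counts in those libraries (3 counts each, counting error only). At E17 the values were 102, 148, 64.9, 72.6 and 109, and at E18 they were 102, 118, 122, 78.4 and 139. The lowest E17 and the lowest E18 library lay far above the highest E15 library, whereas E17 and E18 overlapped throughout, and E18 replicate 3 was not low for this gene. Mean levels were 1.53 ± 2.13 at E15, 99.3 ± 33.2 at E17 and 112 ± 23.0 at E18 (SD, n = 5 each).

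Between E15 and E17 Fgf3 rose by a log2 fold change of 5.72 (SE 0.54, 95% interval 4.55 to 6.89, edgeR quasi-likelihood adjusted p = 1.63e-05). It passed the filter on low counts through E17 alone, so it had to differ, and the size of the change is the description here. In the fit without that filter the adjusted p was 1.21e-05, and without E15 replicate 1, which held 6 of the 10 E15 counts, the log2 fold change was 6.34. Summed over libraries, 10 counts at E15 became 469 at E17, a ratio of rates of 52.6 with an exact counting interval of 28.3 to 110.4. E18 against E15 gave 5.91 (4.66 to 7.16, adjusted p = 4.08e-05, edgeR), or 6.52 without E15 replicate 1. From E17 to E18 the difference was 0.17 (-0.35 to 0.69, adjusted p = 0.729, edgeR), so that no change was detected and a change beyond these limits lies outside the 95% interval. The step from E17 to E18 differed from the step from E15 to E17 by -5.55 on the log2 scale (adjusted p = 0.000796, edgeR on all 15 libraries), or -6.17 without E15 replicate 1. By the labels, the earlier step ran from E15.5 to E17.5 and the later one from E17.5 to E18. The contrast therefore compares steps of unequal length and not rates of change. Fgf3 was the only measured ligand whose steps differed past the threshold, 1 of 8, where 0.551% of all 12894 genes did. Since Fgf3 passed the filter through E17 and E18 alone and was nearly absent at E15, this count is a description. With at least 10 counts required in every library, Fgf3 could not be tested.

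**Figure D1:**
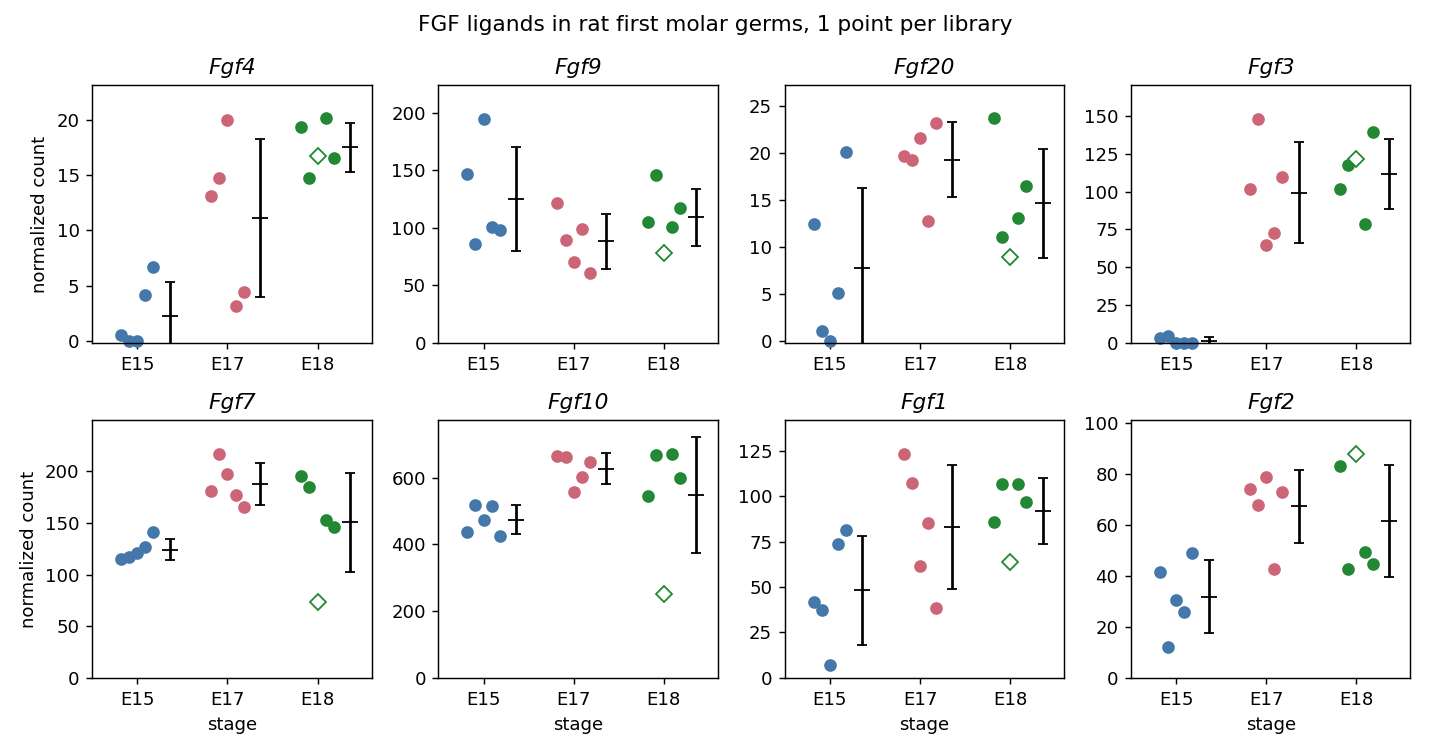
Normalized counts (vertical axis, own scale for each gene) of the 8 measured FGF ligands in each library at E15, E17 and E18 (horizontal axis). Points are libraries, the open diamond is E18 replicate 3, and the bar beside them is the mean with its SD (n = 5), drawn down to 0 where it would pass below. Fgf3 lay at 0 to 4.39 at E15 and at 64.9 or more at the later stages, and E18 replicate 3 was the lowest of all libraries for Fgf7 and Fgf10.

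Among all measured ligands, 4 of the 7 that could be tested between E15 and E17 passed the threshold of an adjusted p of 0.05, all higher at E17 (Fgf3, Fgf7, Fgf10 and Fgf2). Over all genes tested, 18.3% passed, 11.3% higher and 7.02% lower. Since Fgf3 had to differ, the count is a description. The median log2 fold change of the 7 ligands was 0.79, against -0.01 over all genes. The 5 libraries of one stage did not overlap those of the other for Fgf3, Fgf7 and Fgf10, a separation found in 16.3% of all genes, 9.23% with E17 higher.

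Fgf7, a mesenchymal ligand that acts on epithelial cells, rose between E15 and E17. Its E15 values were 115, 117, 121, 127 and 141 normalized counts, and its E17 values were 181, 217, 197, 177 and 166. E18 libraries had 196, 185, 73.6, 153 and 146, with replicate 3 below every E15 library and the other 4 above all of them. E17 against E15 gave a log2 fold change of 0.61 (SE 0.12, adjusted p = 0.00309, edgeR), about 1.52-fold. When all 15 libraries shared 1 estimate of the spread, the adjusted p was 0.057. With the E17 pair from 1 embryo summed, the change was still past the threshold. E18 against E15 gave 0.29 (-0.20 to 0.79, adjusted p = 0.387), and without E18 replicate 3 it was 0.47 (adjusted p = 0.024, edgeR).

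Fgf10, the mesenchymal ligand of the same subfamily as Fgf7 and Fgf3, showed a smaller rise. The E15 libraries held 437, 518, 472, 516 and 424 normalized counts, and those of E17 held 665, 661, 558, 602 and 647. At E18 the values were 546, 668, 253, 672 and 600, and again replicate 3 alone fell below E15. The log2 fold change from E15 to E17 was 0.41 (SE 0.08, adjusted p = 0.00305, edgeR), and it was not past the threshold when all 15 libraries shared 1 estimate of the spread (adjusted p = 0.201). E17 replicates 1 and 2, the highest for this gene, were the pair from 1 embryo. With that pair summed, the change was still past the threshold. E18 against E15 gave 0.22 (-0.26 to 0.70, adjusted p = 0.505), and 0.40 (adjusted p = 0.00728, edgeR) without E18 replicate 3. Neither Fgf7 nor Fgf10 differed between E17 and E18 past the threshold, with log2 fold changes of -0.31 (-0.80 to 0.17) and -0.20 (-0.67 to 0.28). Without E18 replicate 3, these were -0.14 (adjusted p = 0.577) and -0.022 (adjusted p = 0.92, edgeR).

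Markers of the dental tissue layers moved between the same stages. The 7 mesenchymal markers (Msx1, Pax9, Barx1, Lhx6, Lhx8, Pdgfra and Runx2) summed to 32772 to 36377 normalized counts at E15, then 25812 to 27546 at E17 and 21596 to 25195 at E18. Between E15 and E17, 4 of the 7 fell past the threshold while 0 rose, where 7.02% of all genes were lower and 11.3% higher. Of the epithelial markers, Trp63 ran from 1074 to 1700 at E15, from 1779 to 2217 at E17 and from 2605 to 3595 at E18, and Shh from 0 to 46.6, from 366 to 495 and from 686 to 1254. Both rose in each comparison, Trp63 by a log2 fold change of 0.51 between E15 and E17 (adjusted p = 0.0109) and of 0.61 between E17 and E18 (adjusted p = 0.0109, edgeR). Shh is also an enamel knot marker, so it is no separate reading of the epithelium. At 0 to 48 counts at E15, it passed the filter on low counts through the later stage alone, so its rise from E15 is a description. In such bulk samples fewer cells of a type and less RNA per cell cannot be told apart. Spp1, the 1 bone marker of 4 with a row, ranged from 0 to 41.7 at E15, from 24.0 to 659 at E17 and from 56.4 to 344 at E18; its part in these results was not tested.

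Set against the mesenchymal markers of the same library, the mesenchymal ligands rose further. Fgf7 had 3.64 ± 0.287 counts per 1000 mesenchymal marker counts at E15, 7.06 ± 0.929 at E17 and 6.61 ± 2.35 at E18 (SD, n = 5). The corresponding values of Fgf10 were 13.9 ± 1.34, 23.5 ± 1.77 and 24.0 ± 8.15. For Fgf3 they were 0.0458 ± 0.0643, 3.74 ± 1.30 and 4.83 ± 1.03. In each of these 3 genes all 5 E17 libraries exceeded all 5 E15 libraries (exact permutation test, two-sided, p = 0.00794, the smallest this design allows, adjusted p = 0.0179 over 9 ratio comparisons). This outcome was fixed in advance, because in every E17 library each ligand lay above, and the marker sum below, all E15 libraries. Nothing is read from its p-value. For E18 against E15, where replicate 3 lay low, the ratios of Fgf7 and Fgf10 both had an adjusted p of 0.0714 (exact permutation test). Without that library the E18 ratios were 7.53 ± 1.31 and 27.4 ± 2.86 (SD, n = 4), above every E15 library, with an adjusted p of 0.0119 (exact permutation test) for both. That outcome was likewise fixed by the separation of ligand counts and marker sums. This ratio was chosen after the marker values were known, and a fall of the markers raises it by construction.

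**Figure D2:**
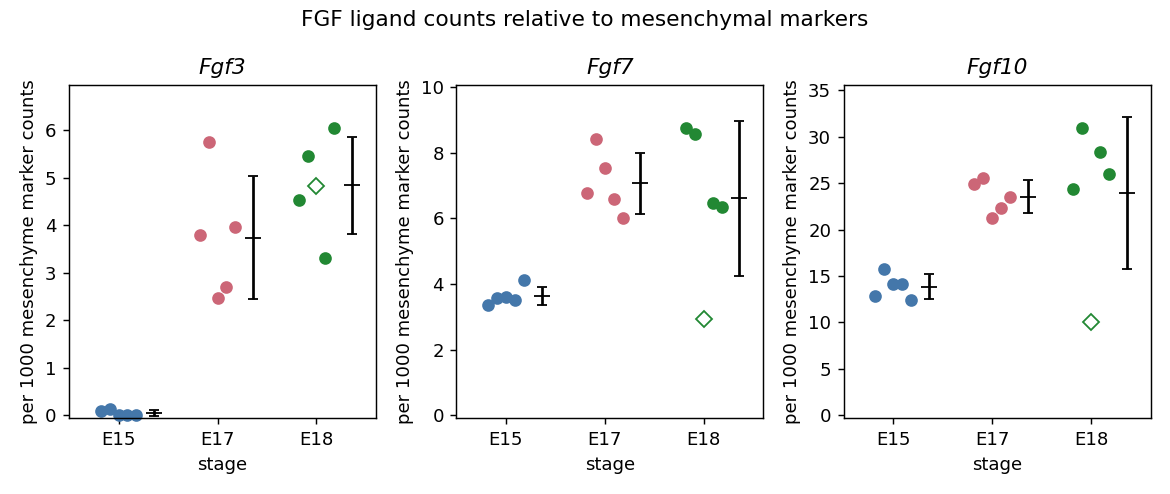
Counts of Fgf3, Fgf7 and Fgf10 per 1000 counts of the 7 mesenchymal markers (vertical axes), by stage. Points are libraries, the open diamond is E18 replicate 3, and bars are the mean with its SD (n = 5). All 3 ligands lay higher in every E17 library than in any E15 library, and E18 replicate 3 was the lowest for Fgf7 and Fgf10.

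Fgf4, an epithelial ligand restricted to the enamel knot in mouse teeth, was the other ligand that separated E15 from E18, at low counts. The E15 libraries had 0.542, 0, 0, 4.14 and 6.71 normalized counts (1, 0, 0, 4 and 6 counts). The E17 values were 13.1, 14.7, 19.97, 3.20 and 4.42, and those of E18 were 19.3, 14.7, 16.7, 20.1 and 16.5. E17 was split, with replicates 1 to 3 above all of E15 and replicates 4 and 5 within it, while each E18 library lay above each E15 library. Replicates 1 and 2 of E17, both on the higher side, were the pair from 1 embryo.

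E18 against E15 gave a log2 fold change of 2.998 for Fgf4 (SE 0.67, 95% interval 1.52 to 4.48, adjusted p = 0.0083, edgeR). Without E15 replicate 5 it was 3.85, and it was at least 2.63 in every fit that left out 1 library. Fgf4 and Fgf3 were the 2 ligands past the threshold among the 8 tested, both higher. Over all genes 21.0% passed and 14.2% were higher, but both ligands passed the filter on low counts through E18 alone and so had to differ, and nothing is read from this count. In the fit without that filter, Fgf4 had an adjusted p of 0.0122 (edgeR). It was too low to be tested between E15 and E17 in the main fit. Without the filter the log2 fold change was 2.33 (adjusted p = 0.0735, edgeR), and with all 15 libraries in 1 fit it was 2.36 (adjusted p = 0.0423, edgeR). The DESeq2 Wald test gave 2.34, barely under the threshold (adjusted p = 0.0496). Summed over the libraries of a stage, Fgf4 stood at 0.151 CPM (counts scaled to the library totals) at E15, 0.861 at E17 and 1.35 at E18 (exact Poisson intervals 0.0753 to 0.270, 0.650 to 1.12 and 1.10 to 1.64, counting error only). The E18 and E15 libraries did not overlap for Fgf4 or Fgf3, a separation found in 23.0% of all genes, 12.7% with E18 higher.

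Fgf9, the ligand that signals from tooth epithelium to mesenchyme, had no change past the threshold in its counts. E15 libraries had 147, 85.6, 195, 100.4 and 98.4 normalized counts, with replicate 3 the highest. The E17 values were 121, 89.4, 70.7, 99.2 and 60.8, and the E18 values 105, 146, 78.1, 100.6 and 117. All 3 stages overlapped, and E17 against E15 gave a log2 fold change of -0.50 (-1.05 to 0.05, adjusted p = 0.194, edgeR), or -0.30 without E15 replicate 3. The 2 epithelial markers rose over the same stages, and their part in this result was not tested.

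Fgf20, the other member of the Fgf9 subfamily here and a target of ectodysplasin signalling in mouse teeth, was variable at E15. The values there were 12.5, 1.10, 0, 5.17 and 20.1 normalized counts, from as few as 0 and as many as 23 counts. E17 had 19.7, 19.2, 21.6, 12.8 and 23.2, and E18 had 23.7, 11.03, 8.93, 13.1 and 16.5. The E17 libraries were closer together than those of E15, yet 1 E15 library, replicate 5, lay within their range. No comparison of Fgf20 passed the threshold (E17 against E15, log2 fold change 1.25, -0.07 to 2.57, adjusted p = 0.178, edgeR).

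The epithelial ligands can be set beside the enamel knot markers (Shh, Cdkn1a, Dkk4, Slit1, Wnt10b, Lef1 and Edar), all 7 of which had a row. Their normalized counts summed to 1843 to 2726 at E15, 3211 to 4218 at E17 and 4007 to 5593 at E18. Lef1 alone held a large part of this sum, with means of 1812 of 2438, 1987 of 3538 and 2554 of 5179. Between E15 and E17 Lef1 was not past the threshold (log2 fold change 0.14, adjusted p = 0.496, edgeR). Between E15 and E17, 4 of the 7 rose (Shh, Cdkn1a, Slit1 and Edar), where 11.3% of all genes were higher and 7.02% lower. Shh, the sonic hedgehog ligand of the knot, rose most, by 4.57 on the log2 scale. It passed the filter on low counts through E17 alone, so this size is a description. Shh and Dkk4 were each at 0 in 1 E15 library, for Dkk4 in replicate 3, where Fgf3, Fgf4 and Fgf20 were also at 0. Fgf3 was at 0 in E15 replicates 4 and 5 too, and Fgf4 in replicate 2, where Dkk4 stood at 161, 114 and 162. In E18 replicate 3 Dkk4 stood at 12.3, while Fgf3 and Fgf4 stood at 122 and 16.7. The part of the enamel knot in the ligand results was not tested.

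The ligands of neither layer were Fgf1 and Fgf2, which lack a classical secretion signal. At E15 Fgf2 had 41.7, 12.1, 30.5, 25.9 and 49.2 normalized counts. The E17 libraries had 74.3, 67.9, 79.0, 42.7 and 72.9, and E18 libraries had 83.1, 42.9, 88.1, 49.3 and 44.9. At E17 it was higher than every E15 library in 4 of 5 libraries. The log2 fold change from E15 to E17 was 1.07 (SE 0.32, adjusted p = 0.0317, edgeR). This call was lost in 5 of the 10 fits that left out 1 library, with an adjusted p of up to 0.0778 without E15 replicate 4, and when the pair from 1 embryo was summed (adjusted p = 0.06). E18 against E15 gave 0.96 (adjusted p = 0.0876, edgeR). This comparison passed the threshold in 1 of 16 alternative fits, and in 0 of those that left out 1 library.

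Fgf1 had 41.7, 37.3, 7.05, 73.5 and 81.7 normalized counts at E15, with replicate 3 far below the rest. At E17 the values were 123, 108, 61.6, 85.4 and 38.7, and at E18 they were 86.0, 107, 63.6, 107 and 96.9. The stages overlapped, and no comparison passed the threshold. The nearest to it was E18 against E15, at a log2 fold change of 0.94 (-0.05 to 1.92, adjusted p = 0.168, edgeR), or 0.67 without E15 replicate 3.

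Between E17 and E18 none of the 8 ligands passed the threshold with edgeR or DESeq2, and 0 of 8 had an unadjusted p under 0.05, where 2.54% of all 12718 genes passed with edgeR. Their median log2 fold change was 0.01, against -0.01 over all genes. The estimates ran from -0.35 for Fgf20 to 0.64 for Fgf4 (-0.29 to 1.57), so the width of the interval differed by gene. For no ligand did the 5 libraries of E17 and E18 separate, which 6.78% of all genes did. These stages, labelled E17.5 and E18, lie closer together in time than those labelled E15.5 and E17.5.

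**Figure D3:**
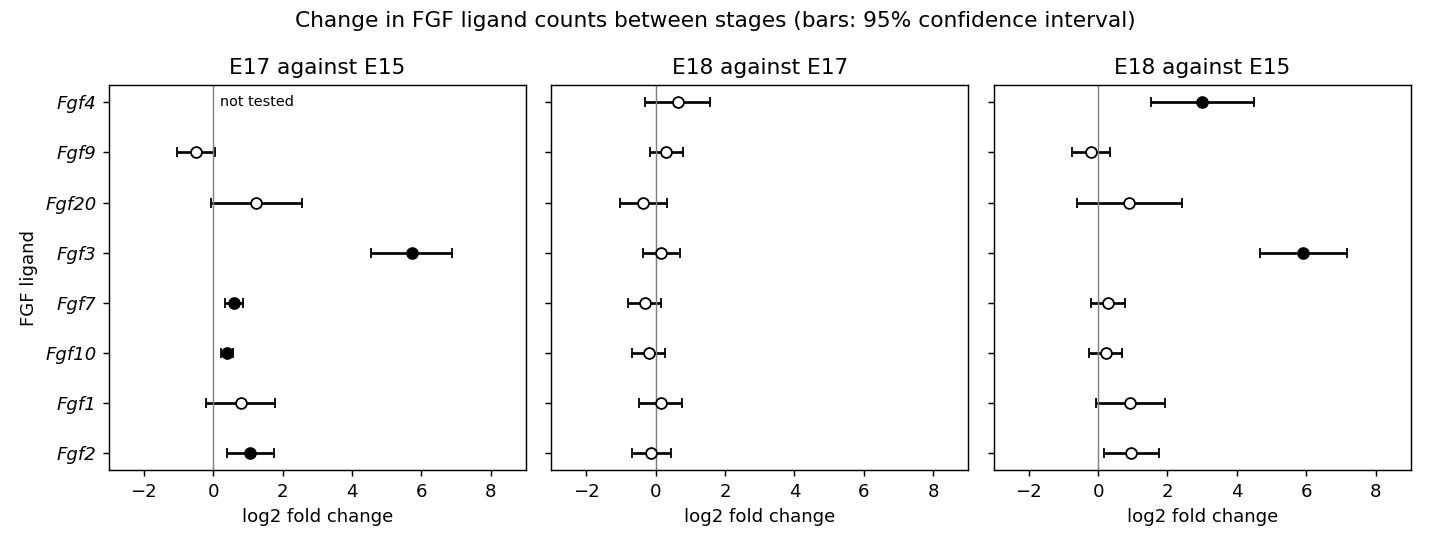
Log2 fold change (horizontal axis) of each measured FGF ligand (vertical axis) in 3 comparisons of stages, with its 95% confidence interval. Filled points passed an adjusted p of 0.05 (edgeR) and open points did not. Fgf3 stood at 5.72 and 5.91 against E15 and at 0.17 between E17 and E18, where all 8 intervals include 0.

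The 3 comparisons share libraries: E17 against E15 and E18 against E15 use the same E15 libraries, and the E17 libraries enter both steps. Their values are therefore given side by side only. Fgf3 read 5.72, 0.17 and 5.91 for E17 against E15, E18 against E17 and E18 against E15, and Fgf9 read -0.50, 0.31 and -0.19.

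The 8 ligands together, as normalized counts, made up 776 to 853 in the E15 libraries, 1073 to 1325 in those of E17 and 704 to 1292 in those of E18. The lowest value at E18 belonged to replicate 3, and the next was 1160. Fgf3 took 0.195% ± 0.272 of these ligand counts at E15, 8.28% ± 2.15 at E17 and 10.7% ± 4.12 at E18 (SD, n = 5). Fgf9 took 15.4% ± 5.48, 7.43% ± 1.70 and 9.96% ± 1.25, and Fgf10 took 58.2% ± 5.81, 53.1% ± 3.15 and 48.4% ± 7.69. In E18 replicate 3 Fgf10 held 35.97%, the lowest share of any library, and Fgf3 held 17.3%, the highest. Shares are of counts and depend on transcript length, so each is compared only with itself at other stages.

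**Figure D4:**
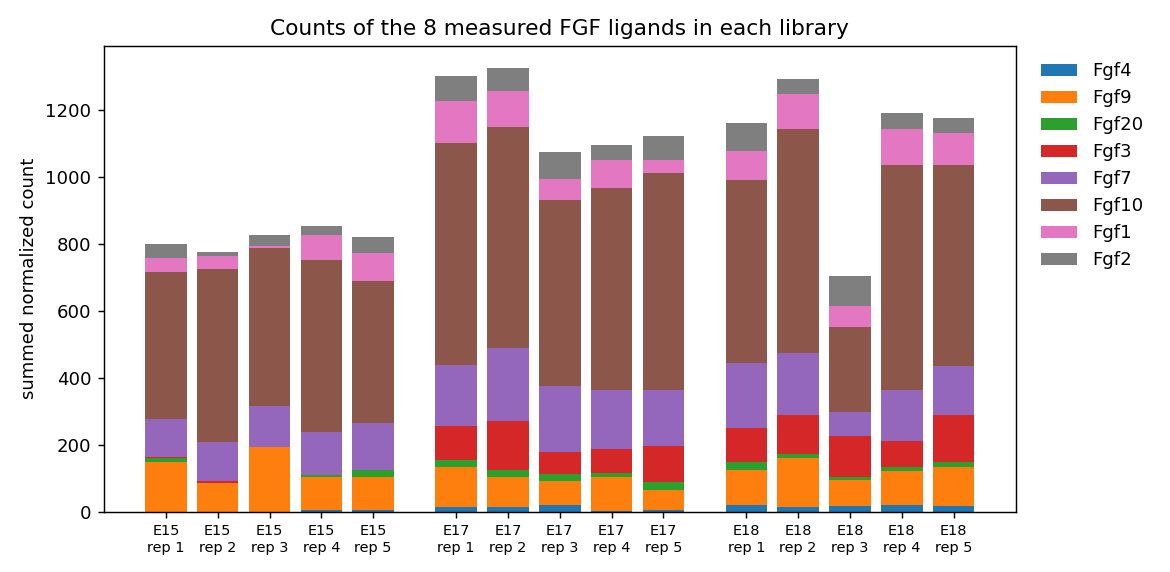
Normalized counts of the 8 measured FGF ligands stacked in each of the 15 libraries (bars from 0; vertical axis, summed normalized count). The E15 sums lay between 776 and 853, and all E17 sums and 4 of 5 E18 sums lay above them. Colours are to be compared between libraries and not with each other, since counts are not corrected for length.

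Of the FGF receptors, Fgfr1 and Fgfr2 held 6033 to 9485 and 5345 to 8439 normalized counts over all libraries. None of the 4 receptor genes changed past the threshold in any comparison. The nearest were Fgfr2 in E18 against E15 (log2 fold change 0.30, 0.08 to 0.51, adjusted p = 0.0518) and in E17 against E15 (0.25, 0.06 to 0.44, adjusted p = 0.0647, edgeR). Fgfr3 ranged from 351 to 1211 and Fgfr4 from 3.36 to 122, the latter with a log2 fold change of 1.69 in E18 against E15 whose interval ran from 0.14 to 3.24 (adjusted p = 0.117).

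Spry2 and Spry4, feedback inhibitors that FGF signalling induces, both rose. Normalized counts of Spry2 were 393 ± 36.7 at E15, 542 ± 42.0 at E17 and 631 ± 80.1 at E18, and those of Spry4 were 588 ± 75.1, 804 ± 60.0 and 918 ± 48.2 (SD, n = 5). Between E15 and E17 the log2 fold changes were 0.47 for Spry2 (adjusted p = 0.00191) and 0.46 for Spry4 (adjusted p = 0.00318, edgeR). Against E15, E18 stood higher by 0.69 and 0.65 (adjusted p = 0.00104 and 0.000896, edgeR). From E17 to E18 they were 0.22 and 0.19, with adjusted p of 0.314 and 0.235.

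Among 58 other FGF pathway genes of the study's own table, receptors and sprouty genes included, 54 had a row and 52 were tested. Of those, 10 were higher and 4 lower at E17 than at E15, 0 changed between E17 and E18, and 12 were higher and 2 lower at E18 than at E15. The shares over all genes were 11.3% higher and 7.02% lower, 2.54% in either direction, and 14.2% higher within 21.0% in either direction. Their median log2 fold changes were 0.07, 0.04 and 0.17. Apart from the sprouty genes, the largest past the threshold were Fgf16, a ligand of the Fgf9 subfamily, at 1.14 (adjusted p = 0.0207), and the transcription factors Stat6 at 0.49 and Stat3 at 0.48 for E17 against E15. For E18 against E15 they were Fgf16 at 1.80 (adjusted p = 0.00332), Stat6 at 0.83 and Stat5a at 0.73 (edgeR). Fgf16 had 10.3 ± 3.21, 22.7 ± 4.27 and 35.96 ± 14.6 normalized counts at the 3 stages. With 6 to 16 counts at E15, it passed the filter on low counts through the later stage alone. Its calls, counted among the 10 and the 12, are therefore a description. Fgf12, an FGF homologous factor that is not secreted, was lower at E17 than at E15 by a log2 fold change of -0.40 (adjusted p = 0.017), and no call was made for Fgf11, Fgf13 or Fgf22, while Fgf5 and Fgf14 were too low to be tested.

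**Figure D5:**
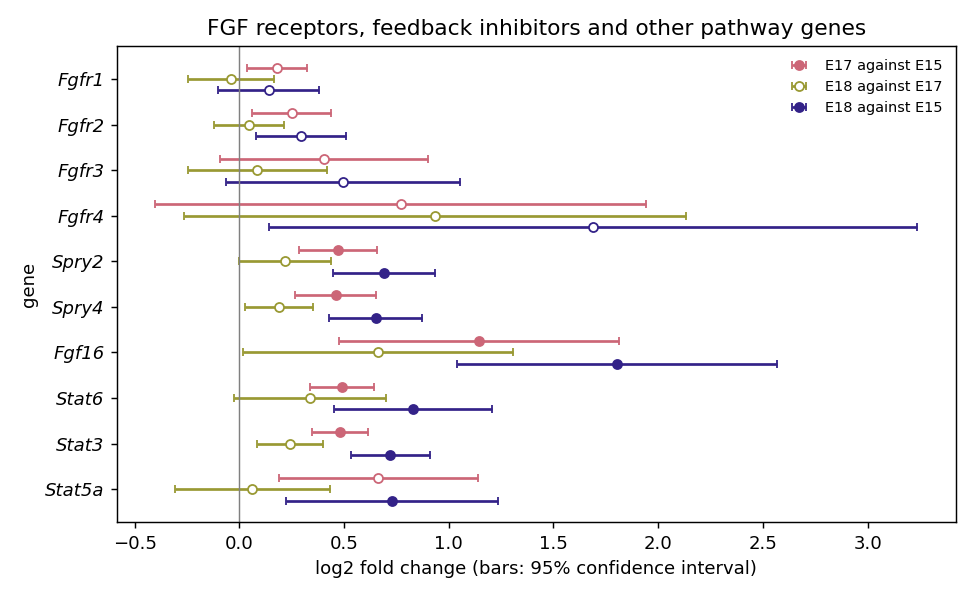
Log2 fold change (horizontal axis) of the 4 FGF receptor genes, the feedback inhibitors Spry2 and Spry4, and Fgf16, Stat6, Stat3 and Stat5a (vertical axis) in 3 comparisons, with 95% confidence intervals. Filled points passed an adjusted p of 0.05 (edgeR). Spry2, Spry4, Fgf16, Stat6 and Stat3 passed in both comparisons with E15, no gene passed between E17 and E18, and no receptor passed in any comparison. Fgf16 passed the filter on low counts through the later stage alone, so its calls are a description.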

How the data were processed

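RNA of 15 single rat molar germs was sequenced by the authors. The study's methods give Ovation Rat library preparation for its rat teeth, which were of E15 and E17, and the E18 protocol text differed. The table used holds expected counts, estimated by the authors with salmon (version 0.99.0 in the submitters' processing notes of the E18 samples) and deposited as whole numbers under mouse Ensembl identifiers. The transcript set, the strand setting and the step from rat to mouse identifiers are not given in the sources used here, so reads shared with near-identical or antisense genes cannot be separated. Rounding the expected counts changed 0 values. The other deposited table, of read counts per rat gene at E15 and E17 (STAR and HTSeq, Rnor_6.0, per the study's methods), was not used here, since its identifiers were not paired with symbols. Symbols came from the study's gene tables, which paired 399 symbols with identifiers, 356 of them with a row. 0 columns of other samples were present.

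Counts were tested with edgeR 4.0.16 (R 4.3.3) by the quasi-likelihood test with TMM scaling, filterByExpr (minimum count 10) and Benjamini-Hochberg adjustment over all genes tested, with the threshold at 0.05. Each comparison used the libraries of its 2 stages, and the difference of the steps used all 15. Normalized counts use size factors of DESeq2 1.42.0. Alternatives were DESeq2 size factors, the DESeq2 Wald test, no filter, at least 10 counts in every library, 1 fit of all 15 libraries, side of the jaw as a covariate, the E17 pair of teeth summed, and each library left out in turn. Ratios of Fgf3, Fgf7 and Fgf10 to mesenchymal markers were added later and tested by exact permutation over libraries. Scripts were tested on simulated counts.

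Named genes were all members, the 4 Fgfr genes, Spry2, Spry4 and, in each comparison, up to 3 further FGF pathway genes with the largest change past the threshold. Fgf12, Fgf11, Fgf13, Fgf22, Fgf5 and Fgf14 were named as the other FGF genes of that table. Of the marker lists, those for skeletal muscle, cartilage, Schwann cells and nerve, blood and endothelium had 0 genes with a row, and 1 epithelial marker is not reported here. Members, lists and motifs were chosen with earlier results of these data known. Promoter sequences are RefSeq's (GRCr8), matched by symbol for 9 of the 10 members. Intervals on summed counts cover counting error only.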

Additional observations from a re-analysis of the deposited data

Results flagged for a closer look

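Over 14 named genes at 3 stages, 42 sets of 5 libraries were examined, and 3 of them held a library lying apart from the other 4. Chance alone flags about 1 in 20 such sets. Fgfr1 stood at 9485 normalized counts in E18 replicate 3, the library that stood apart over all genes, against 6965 to 7633 in the other E18 libraries. Fgfr2 stood at 6623 in E17 replicate 1, against 7864 to 8161. Fgfr4 stood at 49.4 in E15 replicate 2, against 3.36 to 12.9 in the other E15 libraries. None of the 8 FGF ligands had such a library at any stage, also where E18 replicate 3 was lowest for Fgf7 (73.6) and Fgf10 (253).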

How the results depend on the processing

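No paired analysis was possible because the replicate numbers only name libraries, in the order of accessions, and link none between stages. With at least 10 counts in every library, 4 ligands could be tested against E15, and the count past the threshold was 0 for E18 against E15 and 0 for the difference of the steps. Leaving out 1 library gave 2 to 4 ligands for E18 against E15 (4 without E18 replicate 3), 3 to 4 for E17 against E15, 0 for E18 against E17 and 1 for the steps. Among values of single ligands, the sign turned for Fgf1 in E18 against E17 without E17 replicate 5 (-0.037, within -0.037 to 0.33 over all libraries left out in turn) and for Fgf9 in E18 against E15 without E15 replicate 3 (0.020, within -0.31 to 0.020). Taken as a ratio to the mesenchymal markers, it turned for Fgf10 in E18 against E17 (0.026, and 0.22 without E18 replicate 3) and, without that library, for Fgf7 (0.092). None of these 5 passed the threshold on either side. Of the other values of single ligands, 535 kept direction and side, 8 lost and 5 gained a call; the cause was not tested. Over all genes, the fit of all 15 libraries called 1514 for E17 against E15 in place of 2315. For E18 against E17, 323 became 665 with DESeq2, 212 with the E17 pair summed and 141 to 713 when 1 library was left out, the highest without E18 replicate 3. For the steps, 71 became 222 with DESeq2, 43 with the pair summed and 37 to 209 with 1 library left out. The planned repeat on the read counts per rat gene was not run, since no symbol could be joined. Fgf3, Fgf4 and Fgf20 at E15 rest on 10, 11 and 47 counts in all, which limits their folds.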

Other observations

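The genes whose pattern was most like each ligand were sought among 329 or 330 genes with a known symbol and a mean of at least 50 normalized counts, by Pearson's r over the 15 libraries on log2(normalized count + 1). The libraries share stage and preparation, and all candidates come from the study's tables of tooth genes and signalling pathways, so the values are a description. In brackets, r is followed by its value after the stage means were removed. For Fgf3 they were Lama3 (0.97, 0.52), a laminin chain, Ndrg1 (0.97, 0.67) and Fzd6 (0.96, 0.73), a Wnt receptor. For Fgf4 they were the feedback inhibitor Spry4 (0.88, 0.57), Foxi3 (0.84, 0.34) and Lfng (0.84, 0.36). Fgf1 was nearest to Dhh (0.88, 0.86), Sfrp5 (0.82, 0.75) and Spry4 (0.80, 0.86), and Fgf20 to Sfrp5 (0.84, 0.75), Map2k1 (0.78, 0.77) and Fgf1 (0.76, 0.67). Fgf2 was nearest to Stat5b (0.82, 0.58), Timp2 (0.79, 0.52) and Clu (0.75, 0.40). Fgf9 had the lowest r, with Socs2 (0.68, 0.68), Sp4 (0.67, 0.72) and Tcf7l2 (0.64, 0.68).

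For Fgf7 and Fgf10 these values were lower without E18 replicate 3, the lowest library for both. With all 15 libraries they were like each other (0.85, 0.80), but over the 14 others the values were 0.68 and -0.26. Of the other genes nearest to Fgf7, Jak1 went from 0.91 and 0.91 to 0.84 and 0.57, and Postn, a matrix protein, from 0.85 and 0.87 to 0.69 and 0.43. Of those nearest to Fgf10, Adam17 went from 0.84 and 0.85 to 0.48 and 0.083, and Nras from 0.83 and 0.92 to 0.55 and 0.40.

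The spread of a ligand between teeth of one stage can be set beside the spread that counting alone gives. For Fgf10 the coefficient of variation was 9.20% at E15 and 7.31% at E17, against 4.58% and 4.08% from counting, and at E18 it was 31.5%, or 9.70% without replicate 3. For Fgf1 it was 62.3% at E15, 41.0% at E17 and 19.6% at E18, against 14.4%, 11.2% and 10.4% from counting. For Fgf4 at E18 it was 12.6%, below the 23.9% that counting gives at these low counts.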
